A study of Rattus norvegicus with 23 samples.

Results

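Femoral RNA was compared between all 19 libraries of the rat metabolic osteoporosis model (MetOP) and the 4 libraries of healthy controls, of 23 libraries in the series. The model libraries were those whose titles carry the high-fat diet tag, and the controls those titled standard diet with saline. Rats of the model had received saline (n = 5), semaglutide (n = 5), PYY3-36 (n = 4, called PYY) or both drugs together (n = 5, called combination). Each treatment group received a weight of 0.25. The contrast is thus the mean of the 4 diet and L-NAME groups against the controls, and a value in it can come from some groups only. All rats were female Wistar rats, and every library carries batch label 1. L-NAME inhibits nitric oxide synthases. Semaglutide is an agonist of the receptor for the incretin GLP-1. PYY3-36, a hormone released by the gut after meals, acts through a receptor of the neuropeptide Y family.

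Several points limit what the groups stand for. Titles of the model libraries add the tag lfd to the high-fat diet tag, and no label explains it. They also carry LN where the controls carry oLN, which no label spells out and which is read here as with and without L-NAME. Read so, diet and L-NAME changed together and cannot be told apart. The treatment labels of the 4 PYY libraries run through PYY3-36, PYY3-37, PYY3-38 and PYY3-39, while their titles are alike. Doses, durations and ages are not in the labels, and no label states 1 rat per library. The p-values therefore cover only the variation among these libraries, which may be technical.

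Bone is renewed by osteoclasts, which resorb matrix, and osteoblasts, which lay it down, with osteocytes embedded in the matrix directing both. A whole femur also holds marrow blood cells, fat cells, vessels and, where it is not stripped, muscle. Nitric oxide made by the endothelial synthase relaxes vessels through soluble guanylate cyclase. High-fat feeding together with blockade of nitric oxide synthesis is used in rodents to bring obesity and raised blood pressure together.

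Library totals ran from 19.25 to 40.65 M counts in the model and from 21.32 to 32.18 M in the controls, and levels are given as normalised counts per M total counts (CPM). Mitochondrially encoded genes took 67.0% ± 10.04 of the counts in model libraries (SD, n = 19) and 68.2% ± 10.98 in healthy libraries (SD, n = 4). Of the bone markers checked, Col1a1, Bglap, Ibsp, Dmp1, Acp5 and Ctsk were counted in every library, and Sost, the osteocyte marker, was at 0 in 1 MetOP saline and 1 combination library. Skeletal muscle genes took 15.7% ± 7.08 of the remaining counts in the model (SD, n = 19; 1.38 to 26.8%) and 17.4% ± 4.17 in controls (SD, n = 4; 13.85 to 23.3%).

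Of 15271 genes tested, 2 rose in the model and 0 fell at an adjusted p under 0.05, which is 0.0131% of the genes (edgeR quasi-likelihood test, Benjamini-Hochberg adjustment). At an unadjusted p under 0.05 there were 823 higher and 417 lower genes, 5.39% and 2.73% of those tested, where 764 in all would be reached by chance. These 2 shares are the background for the list counts of this main fit below, where 1 higher gene of 18 (5.56%) lies at background. Alternative fits named below have other backgrounds. The median log2 fold change of all tested genes was -0.003. A gene varied between libraries of 1 group with a median biological coefficient of variation of 52.4%. The 2 genes that rose were Mga and Itpkb.

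Mga encodes a very large transcription factor that binds DNA as a partner of Max, the common partner of the Myc family. It lies on chromosome 3, positions 106851140 to 106941043 of mRatBN7.2, on the plus strand. Its level in the model was 6.88 CPM in the lowest library, 10.1 CPM in the median library and 14.4 CPM in the highest, against 3.06, 4.48, 6.02 and 3.73 CPM in the 4 healthy libraries. All 19 model libraries lay above all 4 healthy ones. The log2 fold change was 1.28 ± 0.21 (SE), with an edgeR adjusted p of 0.0365. Set against the same healthy libraries, the log2 fold change of Mga was 1.02 ± 0.23 with saline, 1.30 ± 0.24 with semaglutide, 1.53 ± 0.25 with PYY and 1.26 ± 0.24 with the combination. Differences in Mga among the treatment groups did not pass the test (edgeR adjusted p = 0.691).

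Itpkb encodes a kinase that phosphorylates inositol trisphosphate, the messenger that releases calcium from stores. It lies on chromosome 13, positions 92069216 to 92162004, on the plus strand. The model libraries held 1.85 CPM at the lowest, 3.61 CPM at the median and 8.50 CPM at the highest, against 0.962, 1.19, 1.28 and 1.422 CPM in healthy libraries. The groups did not overlap. Its log2 fold change was 1.76 ± 0.30 (SE), with an edgeR adjusted p of 0.0404. The 4 PYY libraries held 8.50, 6.69, 6.59 and 4.06 CPM, so 3 of them lay above every other library, and the log2 fold change against healthy libraries was 2.41 ± 0.35 with PYY, 1.59 ± 0.34 with saline, 1.53 ± 0.33 with semaglutide and 1.51 ± 0.33 with the combination.

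Both calls depended on single libraries. With any 1 of A232, A240, A215, A216, A248, A318, A320, A387, A389 or A392 left out, no gene was called, and 8 were called without A390. Over 41 alternative fits the log2 fold change stayed between 1.11 and 1.48 for Mga and between 1.35 and 1.87 for Itpkb, and the adjusted p passed in 21 of them for Mga and in 16 for Itpkb, with highest values of 0.279 and 0.357.

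**Figure D1:**
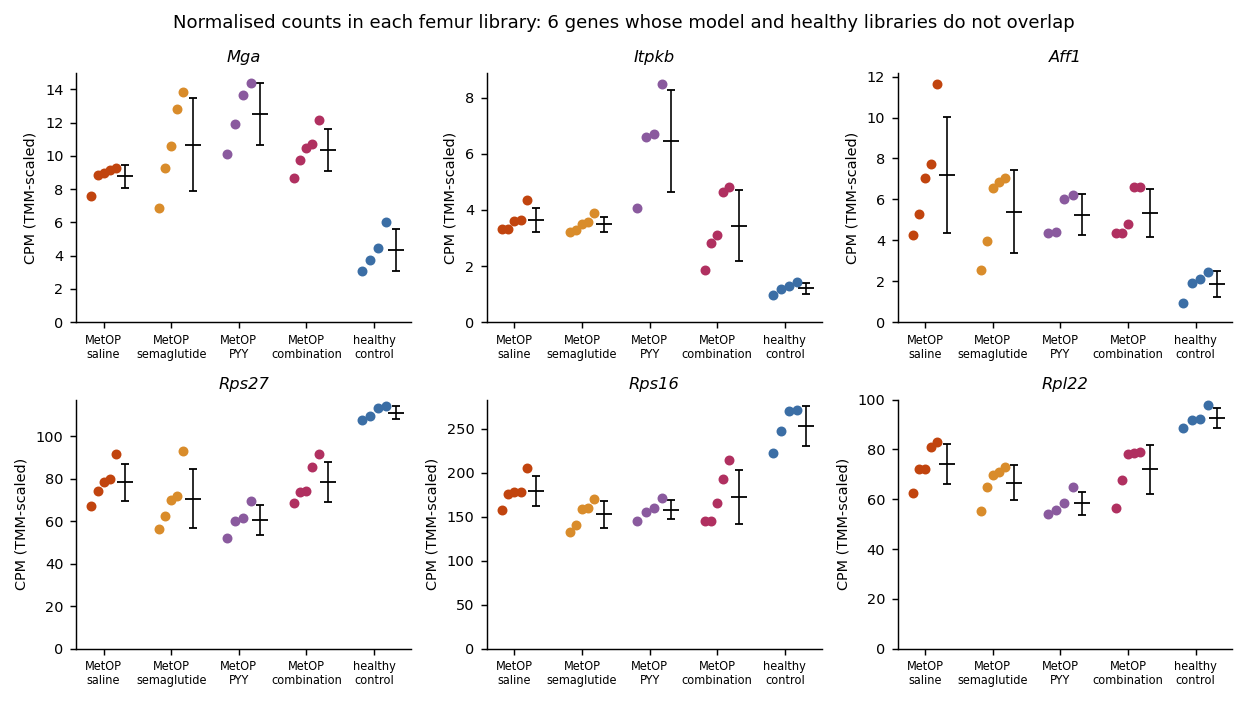
Normalised counts (CPM) of 6 genes in each library, grouped by treatment with the healthy controls on the right. Points are libraries, and the black mark and bar give the group mean ± SD. All 19 model libraries lie above the 4 healthy ones for Mga, Itpkb and Aff1, and below them for Rps27, Rps16 and Rpl22.

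The promoters of the 2 genes that rose, and of Rps27 and Rps16, a pair of ribosomal protein genes described further on, are printed because the levels of all of them separated the model from the controls. Each is 250 bases before and 50 after the most upstream annotated start, 5′ to 3′ on the gene's strand, from RefSeq on GRCr8. This build is not that of the counts. Of the 16 named genes of smallest p, 13 were in the promoter table. Capitals mark matches on either strand to 1 of 6 motifs (the cyclic AMP element TGACGTCA, the AP-1 site TGANTCA, the E-box CACGTG, the CCAAT box, the GC box GGGCGG and the TATA box TATAAA), and a run of 5 or more C or T over the annotated start. No matches overlapped in these 4 windows.
Mga: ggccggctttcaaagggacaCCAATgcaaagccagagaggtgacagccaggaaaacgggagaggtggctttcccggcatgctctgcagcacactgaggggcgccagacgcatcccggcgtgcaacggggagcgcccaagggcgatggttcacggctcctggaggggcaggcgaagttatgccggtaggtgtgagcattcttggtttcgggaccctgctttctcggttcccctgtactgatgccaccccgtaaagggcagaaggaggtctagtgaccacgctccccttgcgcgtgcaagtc
Itpkb: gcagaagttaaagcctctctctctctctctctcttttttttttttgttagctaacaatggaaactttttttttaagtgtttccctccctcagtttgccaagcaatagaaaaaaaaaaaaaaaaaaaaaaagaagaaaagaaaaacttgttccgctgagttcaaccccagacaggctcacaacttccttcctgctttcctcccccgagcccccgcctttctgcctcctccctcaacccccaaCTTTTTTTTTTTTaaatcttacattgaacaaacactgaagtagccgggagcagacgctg
Rps27: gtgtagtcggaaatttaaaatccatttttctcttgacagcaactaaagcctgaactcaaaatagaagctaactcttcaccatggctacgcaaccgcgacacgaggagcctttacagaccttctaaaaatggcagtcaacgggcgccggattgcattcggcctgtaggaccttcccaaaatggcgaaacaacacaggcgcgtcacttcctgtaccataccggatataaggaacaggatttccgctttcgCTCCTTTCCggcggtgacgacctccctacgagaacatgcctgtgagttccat
Rps16: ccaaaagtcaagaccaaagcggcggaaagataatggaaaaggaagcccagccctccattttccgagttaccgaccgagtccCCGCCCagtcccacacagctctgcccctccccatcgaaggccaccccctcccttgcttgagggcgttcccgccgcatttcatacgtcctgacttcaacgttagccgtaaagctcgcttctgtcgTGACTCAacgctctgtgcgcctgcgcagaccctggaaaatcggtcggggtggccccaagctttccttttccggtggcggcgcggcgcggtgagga
Mga lies at chr3:127305125-127305424 on the plus strand of that build, Itpkb at chr13:94600900-94601199 on the plus strand, Rps27 at chr2:177964557-177964856 on the minus strand and Rps16 at chr1:92770408-92770707 on the plus strand. The Mga window held 1 CCAAT match, 230 bases before the start, a motif found in 37.8% of 27455 promoters. The Itpkb window held none of the 6 motifs, and its capitals are a run of pyrimidines over the start. The Rps27 window likewise held only such a run. The Rps16 window held 1 AP-1 match, found in 7.30% of all promoters, and 1 GC box match on the other strand, found in 34.9%. The cyclic AMP element, E-box and TATA box, found in 1.91%, 6.64% and 14.3% of promoters, had no match in these windows. Translation of ribosomal protein messages is known to be controlled through a pyrimidine run at the start of the message. The run marked here is a wider feature, since it may lie mostly before the annotated start. In Itpkb the run of 13 bases began 9 bases before it. Such a run was present in 17 of 31 promoters of the tested cytoplasmic ribosomal protein genes (54.8%). Shares were 3 of 31 for the chromatin genes described further on (9.68%) and 11.7% for all promoters.

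A further 6 genes complete the higher side of the named list, and none passed the adjusted threshold. Mob1b, an activator of the Lats kinases of the Hippo pathway, held 1.36, 3.87 and 6.78 CPM in the lowest, median and highest model libraries, against 0.748, 0.973, 0.639 and 0.415 CPM in healthy ones. Its groups did not overlap, and the log2 fold change was 2.52 ± 0.45 (edgeR adjusted p = 0.0533). Aff1, a scaffold of the super elongation complex that releases paused RNA polymerase, held 2.53, 5.996 and 11.6 CPM at the lowest, median and highest in the model, against 0.962, 2.45, 2.10 and 1.90 CPM in controls. Its log2 fold change was 1.63 ± 0.33 (edgeR adjusted p = 0.0878), again with no overlap. Trim44, a member of the tripartite motif family, had a log2 fold change of 1.28 ± 0.25 and all 19 model libraries above the controls. Arhgef12, which activates the small GTPase RhoA, had 1.28 ± 0.24 with 18 of 19 above, and Fcho2, which starts clathrin-coated pits, had 1.67 ± 0.33 with 17 of 19 above.

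Mrtfb, a coactivator of serum response factor, was at 0 in all 4 healthy libraries and counted in 18 of 19 model libraries, at up to 4.32 CPM. Set against a floor of 3 counts in each healthy library, it was at least 10.4-fold higher in the model. It belonged to 17 genes, of 30562 in the table, that had 0 counts in the 4 controls and counts in 15 or more of the 19 model libraries. The others included Atp7a, the copper transporter whose loss causes Menkes disease, Slc5a3, the sodium-coupled inositol transporter, and Map3k2 and Mid1. Over the 17 genes, median counts in the model ran from 4 to 32, and the highest counts in a model library from 30 to 366. By the strict rule, 0 genes were at 0 in the controls and counted in all 19 model libraries, and 0 were at 0 in the model and counted in all 4 controls. Only Mobp, chosen after its values were seen, was at 0 in the model and counted in 3 controls, with 14, 63 and 20 counts in A389, A390 and A392. A gene of low counts is at 0 in 4 libraries more easily than in 19, so these numbers cannot be compared between directions.

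In 20 genes all model libraries lay above all healthy ones, 0.131% of those tested, and in 8 genes they all lay below, 0.0524%. The widest gap above, 1.04 on the log2 CPM scale, was that of Atad2b, a bromodomain ATPase. Atad2b held 1.21 to 6.97 CPM in the model, against 0, 0.508, 0.548 and 0 CPM in controls. After Atad2b, Mob1b and Itpkb came Entpd7, a nucleotide-hydrolysing enzyme, which was at 0 in 3 controls and at no more than 2.28 CPM in the model. The remaining genes above included Sf3b1, a core splicing factor, Abl1, the tyrosine kinase, and the zinc finger genes Zbtb11 and Tshz2. Sf3b1 held 88.4, 113 and 150 CPM at the lowest, median and highest in the model, against 75.5, 79.7, 84.4 and 81.8 CPM in controls. Among those below the controls were Rps27, Rpl22 and Rps16, the ribosomal pseudogene Rps2-ps6, an unnamed gene (ENSRNOG00000066953), Rtf1, which belongs to the Paf1 elongation complex, and the sorting nexin Snx5. The lists of non-overlapping genes grew when any 1 healthy library was left out, to between 33 and 53 above and between 17 and 24 below, and to 36 and 18 without combination library A253.

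Cytoplasmic ribosomal protein genes, whose products build the ribosome, lay lower in the model as a list. Of 39 tested, 38 were below 0, 0 passed the adjusted threshold, and 24 (61.5%) were lower at an unadjusted p under 0.05, against 2.73% of all genes. The list's median log2 fold change was -0.39, the middle 50% of its genes lying between -0.44 and -0.34, beside -0.003 for all genes. Rps27, of the small subunit, held 52.1, 71.8 and 92.9 CPM at the lowest, median and highest in the model, against 113, 114, 109.5 and 108 CPM in controls. Its groups did not overlap and its log2 fold change was -0.63 ± 0.15 (edgeR adjusted p = 0.168). Rps16 held 133, 160 and 214.7 CPM in the model, against 269.9, 247.7, 222 and 272 CPM in controls, a log2 fold change of -0.61 ± 0.17 (edgeR adjusted p = 0.303). Rpl22, of the large subunit, held 54.1, 69.55 and 82.9 CPM in the model, against 91.7, 97.85, 88.6 and 92.4 CPM in controls, a log2 fold change of -0.46 ± 0.14 (edgeR adjusted p = 0.36). The median of the list was -0.29 with saline, -0.43 with semaglutide, -0.55 with PYY and -0.30 with the combination, each against the same controls. All genes with ribosomal protein symbols, a set not limited to this list, took 3.38% ± 0.65 of the non-mitochondrial counts in the model (SD, n = 19). In controls they took 3.88% ± 0.45 (SD, n = 4). That difference did not pass an exact permutation test (two-sided, adjusted p = 0.440 over 8 measures of library makeup). The list itself took 2.06% in the model, with the 4 groups weighted equally, and 2.34% in controls, a difference that was not tested. Counts of these genes are uncertain where processed pseudogenes share their sequence.

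The other lower named genes included C5h1orf174, a gene with no role given here, at a log2 fold change of -1.15 ± 0.28, and the ribosomal copies Rps2-ps6, Rps28-ps1 and Rps15al4 at -0.9985 ± 0.21, -0.87 ± 0.23 and -0.69 ± 0.17. Entpd3, another nucleotide-hydrolysing enzyme, was at 0 in 13 model libraries, and at 2.81, 0.254, 0 and 1.78 CPM in the controls.

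Genes of chromatin modification and transcription elongation lay higher as a list. Of 44 tested, 41 were above 0, 0 passed the adjusted threshold, and 20 (45.5%) were higher at an unadjusted p under 0.05, against 5.39% of all genes. The median log2 fold change was 0.38, the middle 50% lying between 0.18 and 0.61. Kmt2e, of the family of lysine methyltransferases, held 12.8, 22.5 and 34.65 CPM at the lowest, median and highest in the model, against 8.48, 8.42, 12.9 and 13.9 CPM in controls. The ranges overlapped slightly, and its log2 fold change was 1.04 ± 0.22 (edgeR adjusted p = 0.0964). Kmt2a, the methyltransferase of histone H3 that is rearranged in leukaemia, held 2.78, 7.15 and 13.1 CPM in the model, against 2.67, 3.34, 3.20 and 0.592 CPM in controls, with a log2 fold change of 1.59 ± 0.36 (edgeR adjusted p = 0.156). Kmt2c had 0.95 ± 0.24, Kdm6b, a demethylase of the same histone, 1.17 ± 0.31, and the acetyltransferase Ep300 0.58 ± 0.20. The list's median was 0.42 with saline, 0.33 with semaglutide, 0.53 with PYY and 0.37 with the combination, each against the same controls.

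These 2 lists also differ in the length of their genes, whose median is 8088.5 bases for the chromatin genes and 1325 bases for the ribosomal protein genes in the deposited table. Among 5763 protein-coding genes of sufficient level (mean log2 CPM above 3), the log2 fold change increased with gene length, with a Spearman rho of 0.473 across genes, which are not independent. The median log2 fold change was -0.33 in the shortest of 10 bins of about equal size, of up to 1447 bases, and 0.19 in the longest, of 7259 bases or more. In that shortest bin 97 of 577 genes (16.8%) were lower at an unadjusted p under 0.05, and in the longest 89 of 577 (15.4%) were higher. Genes that were higher at that threshold had a median length of 5889 bases, and those that were lower 1637 bases, beside 3353 bases over all 5763 genes.

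The same contrast can be seen library by library. The mean log2 CPM of genes over 4000 bases minus that of genes under 1000 bases was -0.415 ± 0.283 in the model (SD, n = 19; -0.740 to 0.191) and -0.911 ± 0.201 in controls (SD, n = 4; -1.06 to -0.633). The difference of 0.496 passed an exact permutation test (two-sided p = 0.00508, adjusted p = 0.0407 over 8 measures, smallest possible p 0.000113). It is a difference of plain means, and it was 0.514 with the 4 treatment groups weighted equally. The test took the 19 model libraries as 1 pool, although the treatment groups differed in this level. The groups overlapped, and leaving out healthy library A389, A390 or A392 ended the call, with adjusted p of 0.156, 0.0831 and 0.156. The level was -0.530 ± 0.128 with saline (n = 5), -0.511 ± 0.0922 with semaglutide (n = 5), -0.0510 ± 0.299 with PYY (n = 4) and -0.496 ± 0.316 with the combination (n = 5). This measure was chosen after the data were seen. The cause of the difference was not tested.

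When a smooth trend of level on gene length was removed from every library, the median of all genes moved to 0.107, a shift of over 0.1, and the medians of the 10 length bins lay between 0.02 and 0.05. No gene was then called; Itpkb, Mob1b and Mga had the smallest p, each with an edgeR adjusted p of 0.108, and log2 fold changes of 1.78 ± 0.32, 2.53 ± 0.47 and 1.11 ± 0.21. Genes at an unadjusted p under 0.05 then numbered 855 higher and 147 lower. The chromatin list had a median of 0.27 with 12 genes higher at an unadjusted p under 0.05, and the ribosomal protein list had -0.05 with 1 gene lower. The trend was fitted to these same data, on genes that include members of both lists, as does the long-minus-short level. Flat bins thus follow from the fit, and the smaller list medians are not independent of it. With the long-minus-short level as a covariate instead, the chromatin list had 0.11 with 14 genes higher and 1 lower, and the ribosomal protein list -0.165 with 4 lower. Over all tested genes, 1447 were higher and 905 lower at an unadjusted p under 0.05 with this covariate. Those numbers, not the shares of the main fit, are the background for every list count given with it below. In the main fit, the medians of the chromatin and ribosomal protein lists were 0.38 and -0.39. Libraries of high long-minus-short level also differed in makeup. The highest were PYY libraries A216 and A215, combination library A320 and PYY library A219. Muscle genes took 2.47%, 10.3%, 1.38% and 14.4% of their non-mitochondrial counts. The covariate thus also adjusts for whatever varies with it, and it is not a correction for length alone.

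**Figure D2:**
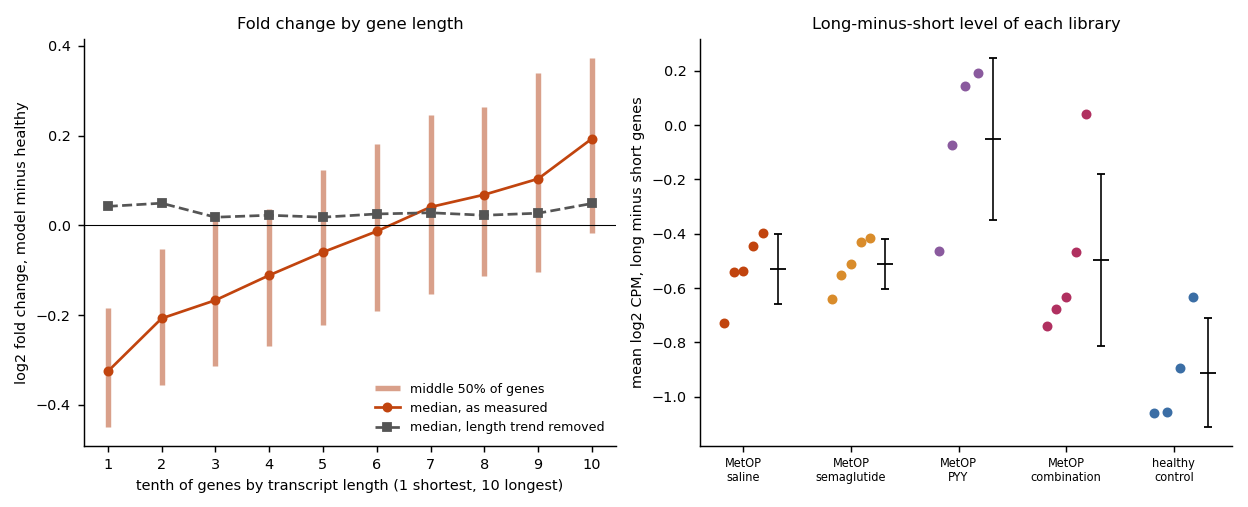
Left, log2 fold change (model minus healthy) of genes in 10 bins by length, with the middle 50% of genes as bars, the median as measured and the median after the length trend was removed. Right, mean log2 CPM of long minus short genes in each library by group, with group mean ± SD. The median climbs from -0.33 in the shortest to 0.19 in the longest bin, and the healthy libraries lie between -1.06 and -0.633.

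Genes of nitric oxide synthesis and vascular tone, the pathway that L-NAME blocks, had a median log2 fold change of 0.35, which was -0.09 with the long-minus-short level as a covariate. Of 34 tested, 6 (17.6%) were higher and 0 lower at an unadjusted p under 0.05, against 5.39% and 2.73% of all genes. No gene of the list passed the adjusted threshold. Nos3, the endothelial synthase, held 4.797, 10.2 and 16.9 CPM at the lowest, median and highest in the model, against 5.41, 7.95, 6.44 and 0.948 CPM in controls. The ranges overlapped, and the log2 fold change was 1.01 ± 0.36 (edgeR adjusted p = 0.422). The lowest control, A392, stood well below the other 3. Nos1, the neuronal synthase, held 0 to 1.96 CPM in the model and 0 to 0.639 CPM in controls. Nos2, the inducible synthase, held 0 to 5.61 CPM in the model and 4.63, 0.381, 0 and 0.474 CPM in controls. Ddah1, which degrades the endogenous inhibitor of these enzymes, held 1.419, 3.17 and 13.2 CPM in the model, against 1.25, 2.12, 0.913 and 1.24 CPM in controls, with a log2 fold change of 1.39 ± 0.50 (edgeR adjusted p = 0.423). Arg1, arginase, was at 0 in all 4 controls and at most at 1.43 CPM in the model. Nosip, an interacting protein of the synthases, had -0.54 ± 0.28.

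Vascular smooth muscle genes had the highest median of the 48 lists, 0.86. Of 13 tested, 9 lay above 0, 4 (30.8%) were higher at an unadjusted p under 0.05, against 5.39% of all genes, and 0 were called. The mean log2 CPM of the list was 4.10 in the model and 3.60 in controls. Its share of the non-mitochondrial counts was 0.318% in the model and 0.337% in controls, so level and share differ in direction. Both model values weight the 4 groups equally, and neither difference was tested. In bulk RNA, more cells of a type and more RNA per cell cannot be told apart. Myh11, smooth muscle myosin, held 17.5, 42.95 and 143 CPM at the lowest, median and highest in the model, against 29.4, 16.1, 21.5 and 21.2 CPM in controls, a log2 fold change of 1.24 ± 0.42 (edgeR adjusted p = 0.405). Acta2, smooth muscle actin, had 1.38 ± 0.48, and Rgs5, a marker of pericytes, 1.46 ± 0.58. The list median was 0.22 with saline, 0.30 with semaglutide, 0.79 with PYY and 1.09 with the combination, each against the same controls. It was 0.002 with the long-minus-short level as a covariate. Endothelial genes had a median of 0.19, with 0 of 18 past the unadjusted threshold. With that covariate their median was -0.34, with 4 genes lower.

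Osteoblast genes had a median log2 fold change of -0.72, and 23 of 24 lay below 0. Of the 24, 4 (16.7%) were lower at an unadjusted p under 0.05, against 2.73% of all genes, and 0 were called. The median stayed below 0 in all 11 alternative fits, but it was -2.16 with 14 genes lower with the long-minus-short level as a covariate, -1.49 with 14 lower without the 4 libraries of highest long-minus-short level, -1.29 with 11 lower with muscle level as a covariate and -0.45 with 0 lower with the model as 1 group. In the same order, 905, 668, 613 and 274 of all tested genes were lower at that threshold in these fits. Col1a1, the main chain of bone collagen, held 56.8, 293 and 2962 CPM at the lowest, median and highest in the model, against 3331, 434, 458 and 1004 CPM in controls. Healthy library A387 stood far above the other 3, the ranges overlapped widely, and the log2 fold change was -1.38 ± 0.64 (edgeR adjusted p = 0.595). Bglap, osteocalcin, held 4.70, 28.8 and 104 CPM in the model, against 127.5, 45.1, 38.25 and 82.15 CPM in controls, with a log2 fold change of -1.16 ± 0.50 (edgeR adjusted p = 0.551). The medians of the treatment groups against the same controls did not point one way. They were 0.16 with saline, -2.10 with semaglutide, 0.39 with PYY and -1.12 with the combination, and 20 of the 24 genes had an unadjusted p under 0.05 for differences among these groups, against 8.62% of all genes.

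Runx2 and Sp7, transcription factors that osteoblasts need, held 1.28 to 52.9 CPM and 0.369 to 27.75 CPM in the model, against 11.6 to 23.5 CPM and 4.19 to 14.1 CPM in controls. Tnfsf11, the signal that makes osteoclasts form, held 0 to 5.61 CPM in the model and 0.685 to 2.53 CPM in controls. Its decoy receptor Tnfrsf11b held 0.178 to 28.7 CPM in the model and 0 to 7.82 CPM in controls. For Runx2, Sp7 and Tnfsf11 some model libraries lay above and some below all controls, and for Tnfrsf11b 5 lay above all controls and 0 below, the lowest control being at 0. Osteoclast genes had a median of 0.16, which was -0.92 with 1 gene higher and 6 lower with the long-minus-short level as a covariate. Without it, 1 of the 20 was higher and 1 lower at an unadjusted p under 0.05. The higher was Nfatc1, the factor that drives osteoclast formation, at 0.58 ± 0.20, and the lower was Acp5, the acid phosphatase of osteoclasts, at -1.34 ± 0.64. Acp5 held 209, 55.8, 67.75, 77.75 and 12.2 CPM with saline, 2.07, 3.41, 16.75, 6.95 and 5.03 CPM with semaglutide, 62.4, 201, 18.0 and 7.33 CPM with PYY and 36.8, 3.02, 19.7, 10.98 and 23.75 CPM with the combination, against 173, 31.9, 20.8 and 74.6 CPM in controls. Ctsk, the collagen-cleaving protease of osteoclasts, had -0.92 ± 0.62. Osteocyte genes had a median of -0.14 with 0 of 15 past the unadjusted threshold, and Sost held 0 to 4.27 CPM in the model and 0.762 to 4.44 CPM in controls.

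Chondrocyte genes had a median of -0.86 with 1 of 19 past the unadjusted threshold. Their mean log2 CPM was 1.30 in the model and 0.386 in controls, so median fold change and mean level differ in sign. The median also turned with the fit, to 1.49 with limma voom, 0.30 with the model as 1 group and 0.37 with the long-minus-short level as a covariate. In the main fit 1 gene thus passed. The single gene was Sox5, at 0 in all controls and in 9 of 19 model libraries. Marrow stroma genes had a median of 0.18, adipocyte genes 0.19, fibroblast genes 0.22 and tendon and periosteum genes 0.22. Past the unadjusted threshold were 1 of 18, 1 of 18, 1 of 17 and 0 of 12. With the long-minus-short level as a covariate these medians were -0.24, 0.79, -0.89 and -0.14, in the same order. Adipoq, adiponectin, held 0.628 to 32.4 CPM in the model and 2.24 to 11.6 CPM in controls. Scara5, a fibroblast marker, was at 0 in all controls and in 5 model libraries, and reached 10.2 CPM.

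**Figure D3:**
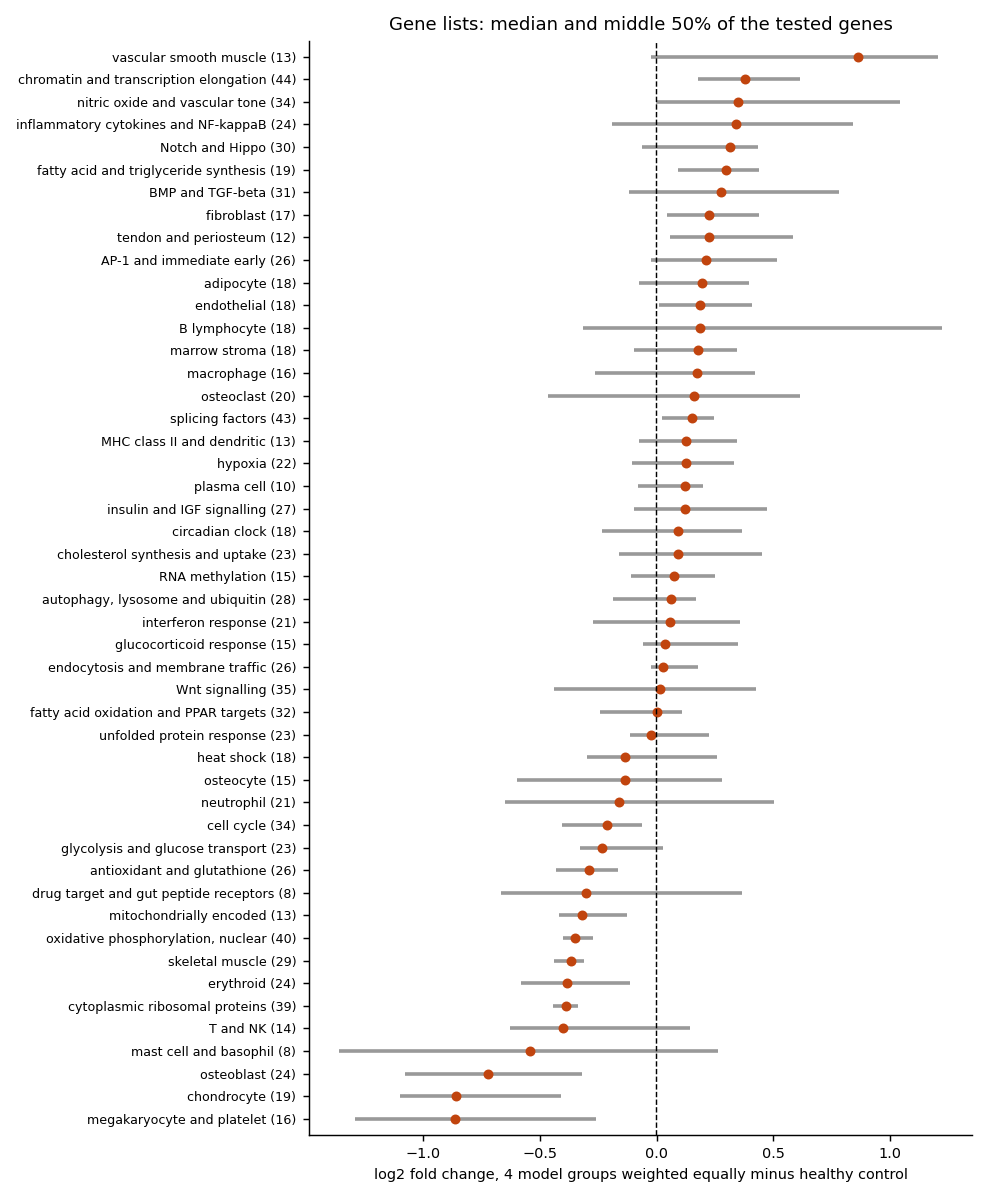
Median (point) and middle 50% (bar) of the log2 fold change of the tested genes of each of 48 lists, with the number of genes in brackets, 4 model groups weighted equally minus healthy control. The dashed line is the median of all tested genes, -0.003. Vascular smooth muscle lies highest at 0.86, and megakaryocyte and platelet genes lie lowest at -0.87.

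Among blood cells, megakaryocyte and platelet genes had a median of -0.87. Of 16 tested, 3 (18.8%) were lower at an unadjusted p under 0.05, against 2.73% of all genes, and 0 were called. The median was -0.51 with 0 genes lower and 1 higher with the length trend removed, -0.65 with 0 lower and 1 higher with the model as 1 group, and -1.43 with 5 lower and 1 higher with the long-minus-short level as a covariate. In the same order, these fits had 147, 274 and 905 of all tested genes lower, and 855, 921 and 1447 higher. Pf4, platelet factor, held 1.98, 5.50 and 30.3 CPM at the lowest, median and highest in the model, against 36.9, 8.72, 17.5 and 25.3 CPM in controls, and its log2 fold change was -1.36 ± 0.54 (edgeR adjusted p = 0.507). Treml1, a receptor of platelet granules, had -2.06 ± 0.73 and Itga2b, the platelet integrin, -1.21 ± 0.58. Erythroid genes had a median of -0.39 with 20 of 24 below 0 and 0 past the unadjusted threshold. Haemoglobin genes took 4.02% ± 3.36 of the non-mitochondrial counts in the model (SD, n = 19) and 5.63% ± 1.94 in controls (SD, n = 4; exact permutation test, adjusted p = 0.751). Neutrophil, T and NK, and cell cycle genes had medians of -0.16, -0.40 and -0.21, with 0 past the unadjusted threshold in each. Mast cell and basophil genes had -0.54, with 2 of 8 lower, Mcpt1 and Cma1, both mast cell proteases. Macrophage genes had 0.17 with 2 of 16 higher, and MHC class II and dendritic genes 0.12 with 0 of 13. With the long-minus-short level as a covariate these 2 medians were -0.70 and -1.08, each with 2 genes lower. B lymphocyte genes had 0.18 with 1 of 18 higher and plasma cell genes 0.12 with 0 of 10. The plasma cell median reached -0.75 in the lowest of 11 alternative fits. The B lymphocyte median turned with the fit, to -2.39 with 8 lower with the long-minus-short covariate, -1.22 without the 4 libraries of highest long-minus-short level, -0.59 with limma voom and -0.56 with muscle level as a covariate.

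Skeletal muscle genes had a median of -0.37, all 29 lay below 0, and 0 passed the unadjusted threshold. Nuclear genes of oxidative phosphorylation had -0.35, with 39 of 40 below 0 and 1 gene higher at an unadjusted p under 0.05. The medians were 0.08 and 0.03 with muscle level as a covariate, and 0.30 and 0.15 with semaglutide alone. Muscle level is the mean log2 CPM of these same muscle genes. That fit therefore draws the muscle median towards 0 by its design and says nothing about the direction of this list. With the long-minus-short level as a covariate the 2 medians were 1.29 and 1.07, so the direction of both lists depends on the fit. There, 13 of 29 and 35 of 40 genes were higher at an unadjusted p under 0.05, beside 1447 of all tested genes. Mb, the oxygen store of muscle, ran from 70.0 to 4336 CPM in the model and from 902 to 3635 CPM in controls. Mitochondrially encoded genes had -0.32, glycolysis genes -0.23, heat shock genes -0.14, fatty acid oxidation genes 0.00 and fatty acid and triglyceride synthesis genes 0.30, with 0 genes past the unadjusted threshold in these 5 lists. With the long-minus-short level as a covariate, fatty acid oxidation was at 1.43 with 24 of 32 genes higher and fatty acid synthesis at 0.71 with 6 of 19 higher and 2 lower. With that covariate glycolysis was at 0.56, heat shock at 0.64 and the mitochondrially encoded genes at 0.08, each of the opposite sign.

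Antioxidant and glutathione genes had a median of -0.29, and 25 of 26 lay below 0. Of the 26, 3 (11.5%) were lower at an unadjusted p under 0.05, against 2.73% of all genes, and 0 were called. Prdx6, a peroxide-reducing enzyme, held 18.2, 31.0 and 38.8 CPM at the lowest, median and highest in the model, against 29.7, 48.9, 37.65 and 45.9 CPM in controls, with a log2 fold change of -0.49 ± 0.17 (edgeR adjusted p = 0.413). Mt2A, a metallothionein, had -1.57 ± 0.61 and Gsta6, a glutathione transferase, -0.68 ± 0.27. The list's median length was 1922 bases, and its median log2 fold change was -0.08 with the length trend removed.

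Signalling lists had medians at or above 0, and those of the Wnt, BMP and TGF-beta, Notch and Hippo, and inflammatory lists were below 0 with the long-minus-short level as a covariate. AP-1 and immediate early genes had a median of 0.21. Against 5.39% of all genes, 4 of these 26 (15.4%) were higher at an unadjusted p under 0.05. Among them Fosl2, an AP-1 subunit that acts in bone and fat, held 2.18, 5.07 and 13.6 CPM at the lowest, median and highest in the model, against 2.32, 0.846, 2.05 and 0 CPM in controls, with a log2 fold change of 2.16 ± 0.60 (edgeR adjusted p = 0.303). Nr4a2 and Junb had 1.56 ± 0.52 and 0.85 ± 0.31. Wnt genes had a median of 0.01 with 6 of 35 (17.1%) higher, against the same 5.39%. Lrp6, the co-receptor of Wnt ligands, held 2.16, 3.87 and 8.06 CPM in the model, against 3.03, 1.06, 1.00 and 1.54 CPM in controls, at 1.31 ± 0.39 (edgeR adjusted p = 0.347), and Fzd4, a receptor, had 1.23 ± 0.37. BMP and TGF-beta genes had 0.28 with 6 of 31 higher and 1 lower, led by Ltbp1, which stores latent TGF-beta in matrix, at 0.84 ± 0.33. Notch and Hippo genes had 0.31 with 3 of 30 higher, and Lats1, the kinase that Mob1b activates, held 10.2, 13.6 and 23.3 CPM in the model, against 7.62, 6.01, 9.58 and 12.1 CPM in controls, at 0.72 ± 0.20 (edgeR adjusted p = 0.3).

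Inflammatory cytokine and NF-kappaB genes had a median of 0.34 with 3 of 24 higher, namely Il1r1, the interleukin-1 receptor, at 1.30 ± 0.37, Nfkb1 at 0.64 ± 0.21, and Ptgs2, the inducible cyclooxygenase, which was at 0 in all controls and in 6 model libraries. Insulin and IGF genes had 0.12 with 3 of 27 higher and 1 lower. Rictor and Tsc2, which set mTOR activity, had 1.51 ± 0.51 and -0.48 ± 0.17. Splicing factors had 0.15 with 4 of 43 higher and 1 lower, and RNA methylation genes 0.07 with 1 of 15 lower. That gene was Fto, the demethylase linked to body weight, at -0.65 ± 0.20. Circadian genes had 0.09 with 1 of 18 higher, Per1 at 1.03 ± 0.35, and glucocorticoid response genes 0.04 with 2 of 15 higher and 1 lower. Cholesterol genes had 0.09 with 2 of 23 higher, and unfolded protein response genes -0.03 with 2 of 23 higher. Hypoxia genes had 0.12 with 0 of 22 and interferon genes 0.06 with 1 of 21 lower. The interferon median reached -0.79 in the lowest of 11 alternative fits. Autophagy genes had 0.06 and membrane traffic genes 0.03, each with 1 higher and 1 lower, of 28 and 26. Receptors and peptides of the drugs' pathways had -0.31 with 1 of 8 higher, Npy1r at 1.20 ± 0.53, and 1 lower, Npy at -1.76 ± 0.51.

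Whether the 4 treatment groups of the model differed among themselves was tested in the same fit. Of 15271 genes, 2 differed at an adjusted p under 0.05 (0.0131%), and 1317 at an unadjusted p under 0.05 (8.62%). Ddr2, a collagen receptor of fibroblasts and bone cells, held 18.7, 17.5, 30.0, 15.6 and 14.7 CPM with saline, 5.21, 7.67, 5.14, 7.58 and 4.47 CPM with semaglutide, 48.3, 29.2, 26.6 and 25.95 CPM with PYY and 17.0, 13.2, 25.8, 8.76 and 15.9 CPM with the combination, against 8.90, 3.34, 7.76 and 4.798 CPM in controls. All semaglutide libraries lay below all other model libraries (edgeR adjusted p = 0.0226 among the groups). Fbn1, the fibrillin of elastic microfibrils, held 225.8, 31.0, 48.2 and 9.13 CPM with PYY and 4.84 to 17.9 CPM in the other model libraries, against 20.5, 5.67, 9.90 and 12.7 CPM in controls (edgeR adjusted p = 0.0360 among the groups). In Fbn1 1 PYY library, A215, stood far above the rest, and without it, or without any 1 of the 5 semaglutide libraries, no gene was called among the groups. Without PYY library A220, 106 genes were called among the groups.

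**Figure D4:**
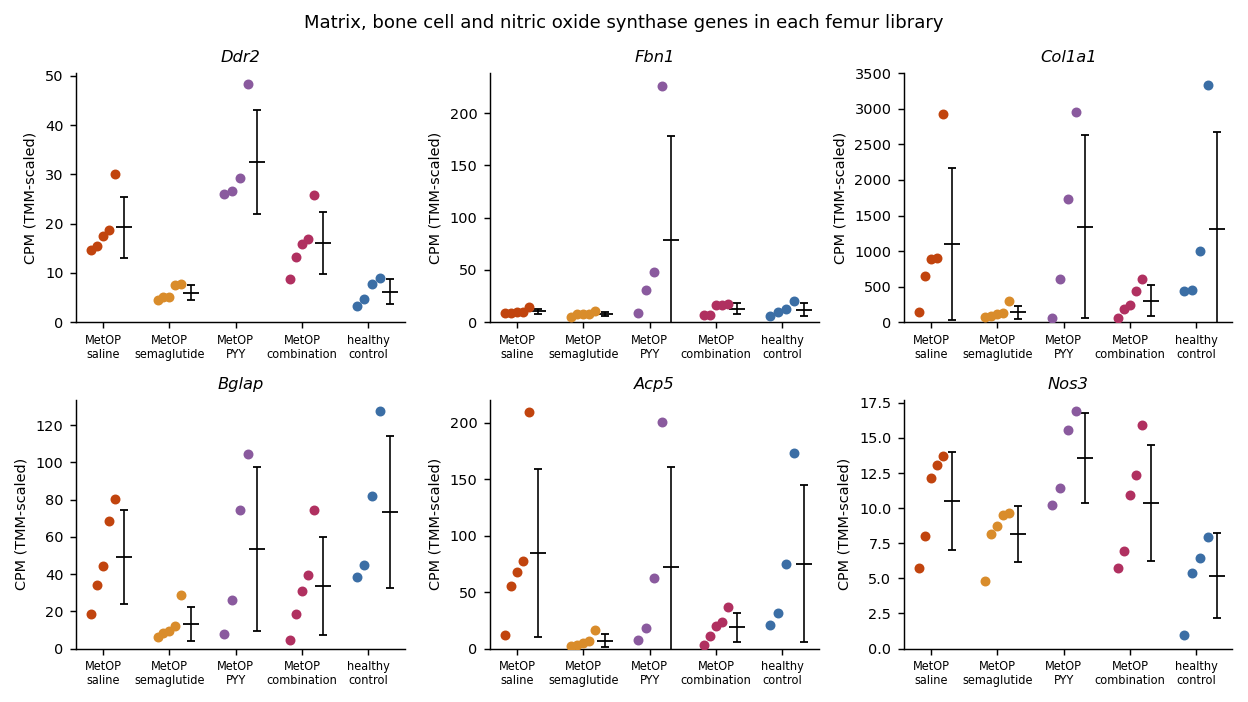
Normalised counts (CPM) of Ddr2, Fbn1, Col1a1, Bglap, Acp5 and Nos3 in each library by group, with group mean ± SD (bars cut at 0). The semaglutide libraries lie below all other model libraries for Ddr2, and 1 PYY library reaches 225.8 CPM for Fbn1.

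The treatment groups therefore stood at different distances from the controls in some lists and at similar ones in others. The medians of ribosomal protein and chromatin genes had 1 sign in all 4 groups. Those of fibroblast genes ran from -0.65 with semaglutide to 1.61 with PYY, with 0.30 with saline and -0.14 with the combination. Those of chondrocyte genes were 1.22 with saline, -3.99 with semaglutide, 1.13 with PYY and -1.72 with the combination. The 4 contrasts share their controls, so likeness between them is not independent. Against healthy controls alone, 0 genes were called with saline, 0 with semaglutide, 3 with PYY and 0 with the combination, and 1000, 1272, 1976 and 871 had an unadjusted p under 0.05.

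**Figure D5:**
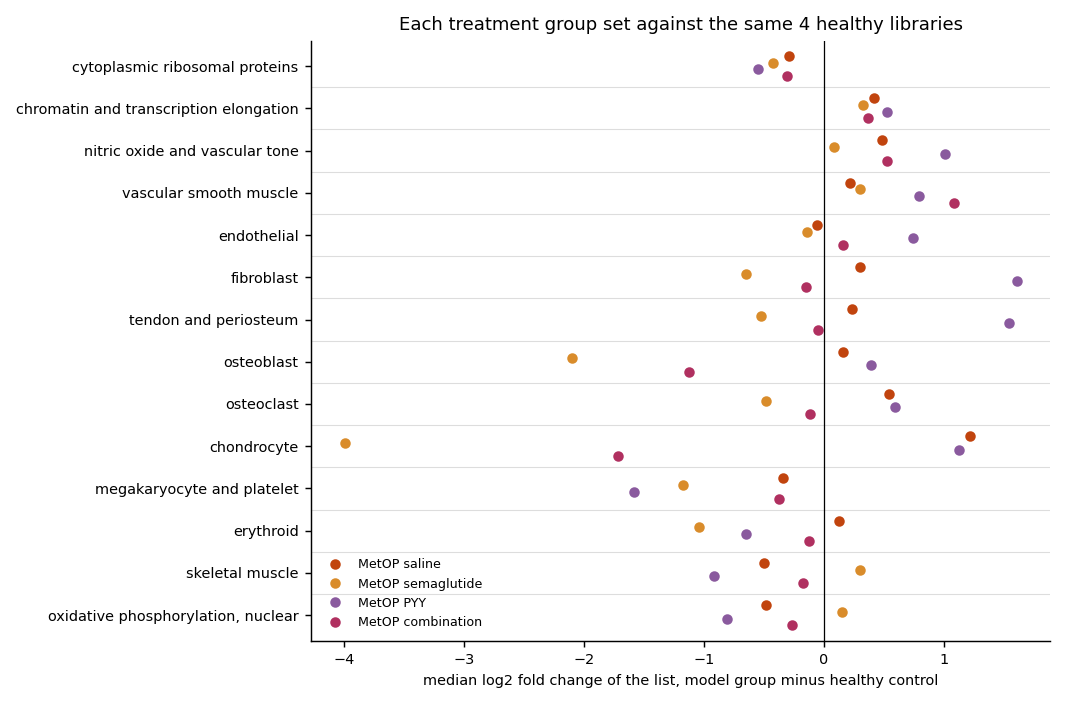
Median log2 fold change of 14 gene lists in each model group minus the same 4 healthy libraries. Points are the treatment groups. Ribosomal protein genes lie below 0 and chromatin genes above 0 in all 4 groups, while osteoblast genes lie between -2.10 with semaglutide and 0.39 with PYY.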

How the data were processed

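Whole-number read counts per gene were deposited for 23 libraries; the authors' notes name mRatBN7.2 and DESeq2 1.42.0, per the submitters' processing notes, with the read aligner and counting tool not given in the sources used here. Deposited FPKM values equal the counts divided by gene length and a fixed depth per library, and were used only for that check. The protocol in the labels describes both a stranded and a non-stranded preparation, so reads from overlapping antisense genes cannot be assigned.

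Counts were fitted with edgeR 4.0.16 in R 4.3.3 (TMM scaling, filterByExpr, quasi-likelihood test, 5 group means, 18 residual degrees of freedom), with Benjamini-Hochberg adjustment over 15271 of 30562 genes; 10661 had no count. CPM were TMM-scaled, and log2 CPM used a prior count of 2. The 8 library measures were compared by exact permutation tests on plain means, without regard to treatment group. DESeq2 and limma 3.58.1 were alternatives. The pipeline was tested on simulated data. No 2 libraries of the same group agreed within sampling noise (chi-square per degree of freedom at least 50.13 over the 42 pairs within groups).

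The members and the 48 gene lists were chosen with earlier results of these data known. Of 1156 list entries, 1128 matched by symbol and 3 by synonym. Named genes were the called genes, filled to 8 a direction by smallest p, the 3 of smallest p in each list, 13 genes of bone, fat and nitric oxide taken whatever their values, the 5 of widest gap in each direction, and the 5 of smallest p among model groups. Other genes named were chosen after their values were seen. A few genes that the rule would name are not reported here.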

Additional observations from a re-analysis of the deposited data

Results flagged for a closer look

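Of 175 groups of values checked (27 genes and 8 library measures), 14 held a library far from the others of its group. Chance gives about 1 in 20, or 8.75, for normally distributed values. The CPM of these genes need not be so distributed, so no conclusion is drawn from 14 against 8.75. In library size, PYY library A220 had 37.25 M counts, against 22.53 to 24.81 M in the other PYY libraries, and combination library A251 had 12.25 M non-mitochondrial counts, against 6.965 to 7.627 M.

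MetOP saline library A229 stood apart in 5 of these values. Its ribosomal protein share was 4.488% (3.357 to 3.591% in the other saline libraries), and it held 14.57 CPM of Fbn1 (8.723 to 10.22), 7.684 CPM of Cenpm (0.3338 to 1.392), 22.45 CPM of Rtf1 (24.99 to 25.91) and 30.0 CPM of Ddr2 (14.71 to 18.67). Saline library A224 held 7.575 CPM of Mga (8.868 to 9.287), and saline library A226 held 9.832 CPM of ENSRNOG00000066953 (13.61 to 14.1).

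PYY library A215 held 48.26 CPM of Ddr2 (25.95 to 29.21) and 2.444 CPM of Atad2b (3.277 to 3.37). Combination library A320 held 15.24 CPM of Fcho2 (5.067 to 7.47). Semaglutide library A238 held 0.03914 CPM of Cenpm (1 count) and healthy library A390 held 0.09128 CPM of Entpd7 (2 counts). The others of their groups were at 0, so any count in 1 library would be flagged.

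The 4 model groups differed in Ddr2 (edgeR adjusted p = 0.0226) and Fbn1 (edgeR adjusted p = 0.036).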

How the results depend on the processing

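Mga and Itpkb were the 2 genes called with RLE or upper-quartile scaling, a stricter filter or no mitochondrial genes. With the model as 1 group 2 genes were called, Mga but not Itpkb. The count of 2 became 196 with DESeq2 (171 higher, 25 lower), 0 with limma voom, 0 with no filter, 1 with libraries thinned to equal non-mitochondrial depth, 0 with muscle level and 19 with erythroid level as a covariate. It was 0 without the saline, the semaglutide or the PYY group and 1 without the combination group. Of the alternatives chosen after seeing the data, it was 0 with the length trend removed, 25 with the long-minus-short level as a covariate (neither Mga nor Itpkb among them), and 0 without the 4 libraries of highest long-minus-short level. Leaving out 1 library gave 0 to 8.

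The 2 genes that differed among model groups became 205 with DESeq2, 1 with no filter, 0 with muscle and 1 with erythroid level as a covariate, 1 with the length trend removed, 0 with the long-minus-short covariate and 0 without those 4 libraries. Leaving out 1 library gave 0 to 106. The cause of these changes was not tested.

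The 20 genes above and 8 below all controls became 36 and 15 without the saline group, 33 and 15 without semaglutide and 48 and 23 without the combination, and 1 lay below with the length trend removed. Leaving out 1 library gave 20 to 53 above and 8 to 24 below. The long-minus-short difference ranged from 0.4466 to 0.5889 without 1 healthy library. Of 48 list medians, 18 kept their sign over 11 alternatives and 30 did not in at least 1. No paired analysis was possible because the groups share no replicate numbers.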
